A study of Mus musculus with 12 samples.

Results

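Untreated vascular smooth muscle cells, grown in primary culture from mice labelled TIGAR knockout, were compared by RNA sequencing with untreated cells from wild-type mice. The comparison holds 6 of the 12 libraries of the series, 3 labelled TIGAR KO and 3 labelled WT, and was chosen by label and treatment alone. Per the labels' protocols, the mice of both groups were 4 to 6 weeks old, and cells at passage 4 to 6 were grown in DMEM/F12 medium with 10% serum. The other 6 libraries are the same pair of genotypes after 6 h in PDGF-BB at 40 µg/L, a dimer that drives smooth muscle growth. The labels name no strain, sex, vessel or knockout allele, and they leave unstated if a group's 3 libraries are separate animals or separate cultures. All p-values therefore measure the spread between these samples, which may be technical.

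TIGAR is a p53-induced enzyme that removes an activator of phosphofructokinase and so slows glycolysis. It is known for turning glucose towards the pentose phosphate pathway, which supplies NADPH to the glutathione system. Smooth muscle cells of the arterial wall can hold a contractile state, rich in actin and myosin, or a synthetic state, in which they divide and lay down collagen and elastin. Wild-type and knockout cultures were compared here to ask which genes differ before any growth factor is added.

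The targeted gene was examined first, because it checks the labels. Tigar (ENSMUSG00000038028, chr6:127085116-127109557 of GRCm38, minus strand) had 6.99, 8.61 and 6.91 CPM (reads per 1000000 of the library) in the wild-type libraries. It had 10.0, 12.2 and 11.3 CPM in the libraries labelled knockout. All 3 labelled knockout libraries lay above all 3 wild-type libraries, and the difference was 0.52 (SE 0.11) on the log2(CPM + 1) scale, with an adjusted p of 0.0021 by limma-trend. The table counts reads over the whole gene and the labels do not say which part of it was altered, so these values cannot show whether a shortened transcript is present. Below, the group is called labelled knockout for this reason.

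Library totals in the untreated groups ran from 14953807 to 19639729 reads, and the mitochondrial share from 1.36% to 1.45%. The first principal component of the 6 libraries held 79.4% of the variance and separated the labels. The second held 8.90% and set labelled knockout library 1, at 18.6, apart from libraries 2 and 3 of its group, at −9.94 and −8.52. For the genes whose libraries are printed below, its own value can be read. Any 2 libraries of a group differed by a root mean square of 0.180 to 0.258 on the log2 scale, and any 2 of different groups by 0.499 to 0.526.

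Of 14202 genes with at least 1 CPM in at least 3 of the 12 libraries, 4823 (34.0%) differed between labelled knockout and wild-type at an adjusted p under 0.05 by limma-trend. The levels of 1300 genes (9.15%) were higher and those of 3523 (24.8%) lower in labelled knockout. The median over all genes was −0.13 on the log2 scale. After TMM scaling, which removes such a shift, the median was −0.0071 and 3964 genes (27.9%) were called, 1930 higher (13.6%) and 2034 lower (14.3%). No gene called in both settings changed direction. At least 2-fold differences were fewer, with 355 genes higher (2.5%) and 392 lower (2.76%), and 417 higher and 295 lower after TMM scaling. With a pseudocount of 5 in place of 1 there were 175 and 158. In the plot of differences against level, the called genes of large change spread over the whole range of expression.

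**Figure D1:**
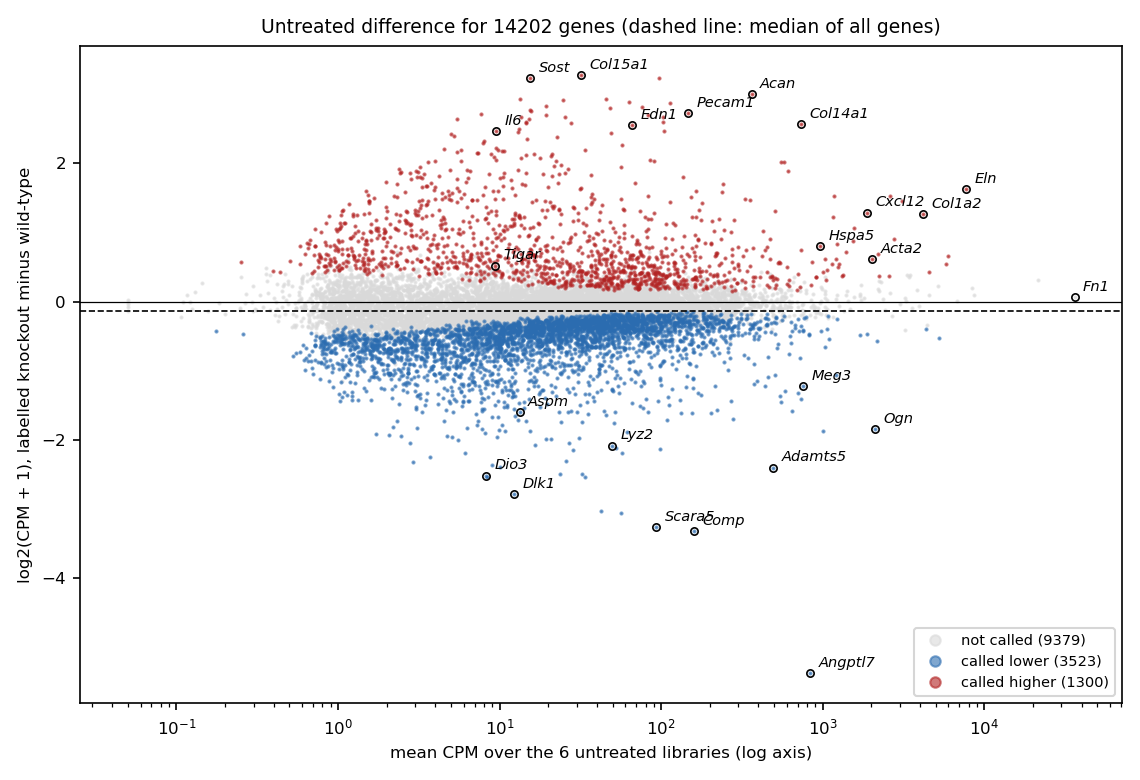
Each point is 1 of 14202 genes, with its mean CPM over the 6 untreated libraries on a log axis and its log2(CPM + 1) difference, labelled knockout minus wild-type, on the y axis; red and blue points are the 1300 genes called higher and the 3523 called lower. Circles mark named genes, among them Angptl7 at −5.37 and Col15a1 at 3.27, and the dashed line is the median of all genes at −0.13.

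Angptl7, a secreted angiopoietin-like protein of connective tissue, showed the deepest fall. It lies at chr4:148495183-148500460 on the minus strand. Wild-type libraries held 1595, 1684 and 1609 CPM, and labelled knockout libraries 42.1, 36.2 and 36.8 CPM. The groups were far apart, with a mean 42.4 times lower in labelled knockout and a log2 difference of −5.37 (SE 0.07, adjusted p = 2.2e-14 by limma-trend). The next deepest falls were in Comp, a cartilage and tendon matrix protein, and Scara5, a ferritin receptor of adventitial fibroblasts. Comp fell from 294, 242 and 338 CPM to 35.5, 25.9 and 23.8 CPM, a log2 difference of −3.32 (SE 0.15). Scara5 fell from 165, 168 and 176 CPM to 20.5, 14.8 and 15.8 CPM, a log2 difference of −3.25 (SE 0.10). Neither gene's groups overlapped.

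The other 12 of the 15 deepest falls lay between −2.31 and −3.06. They include Chrdl1, a secreted BMP antagonist, Nt5e, the ectoenzyme CD73 that makes adenosine, and Adamts5, a protease that cleaves aggrecan. Adamts5 went from 846, 819 and 822 CPM to 113, 187 and 180 CPM. The remaining falls are Dlk1, C1qtnf3, Dio3os, Dio3, Selenbp1, Rspo3, Adgre1, Camk2a and Chodl. In all 30 genes with the largest rises and falls, the 3 labelled knockout libraries lay on 1 side of the 3 wild-type libraries, as the rule that chose them required. Separate libraries were seen for 54.7% of all genes, 14.1% higher and 40.5% lower.

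Among the rises, Col15a1 came first. This basement membrane collagen had 4.92, 3.87 and 5.42 CPM in wild-type and 97.5, 39.2 and 41.0 CPM in labelled knockout, a log2 difference of 3.27 (SE 0.26). Labelled knockout library 1 stood far above the others of its group, and without it the difference was 2.85. Sost, which encodes the Wnt inhibitor sclerostin, had 1.70, 2.09 and 2.09 CPM against 46.3, 22.6 and 18.2 CPM. Library 1 was again the highest, and the log2 difference of 3.23 (SE 0.26) was 2.85 without it. Acan, the large aggregating proteoglycan of cartilage, which arterial smooth muscle cells also make, rose from 84.6, 77.9 and 77.3 CPM to 689, 624 and 631 CPM (log2 3.00, SE 0.11).

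Several of the other 12 rises are genes known from the endothelium, among them Ptprb, a phosphatase of endothelial junctions, with 16.8, 17.3 and 18.9 CPM against 206, 167 and 156 CPM. Emcn, Tie1 and Pecam1 are members of the endothelial marker list described next. Also among them are Adgrf5, Bmp6, Sfrp1, Myct1, Gdf6, Bmx and Klhl6, at log2 differences of 2.75 to 2.92. All 30 genes kept their direction and their call in 599 of 599 alternative fits that gave them a value, with edgeR and DESeq2 on recovered reads, other scalings and filters, and each untreated library or wild-type PDGF-BB library 1 left out in turn.

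**Figure D2:**
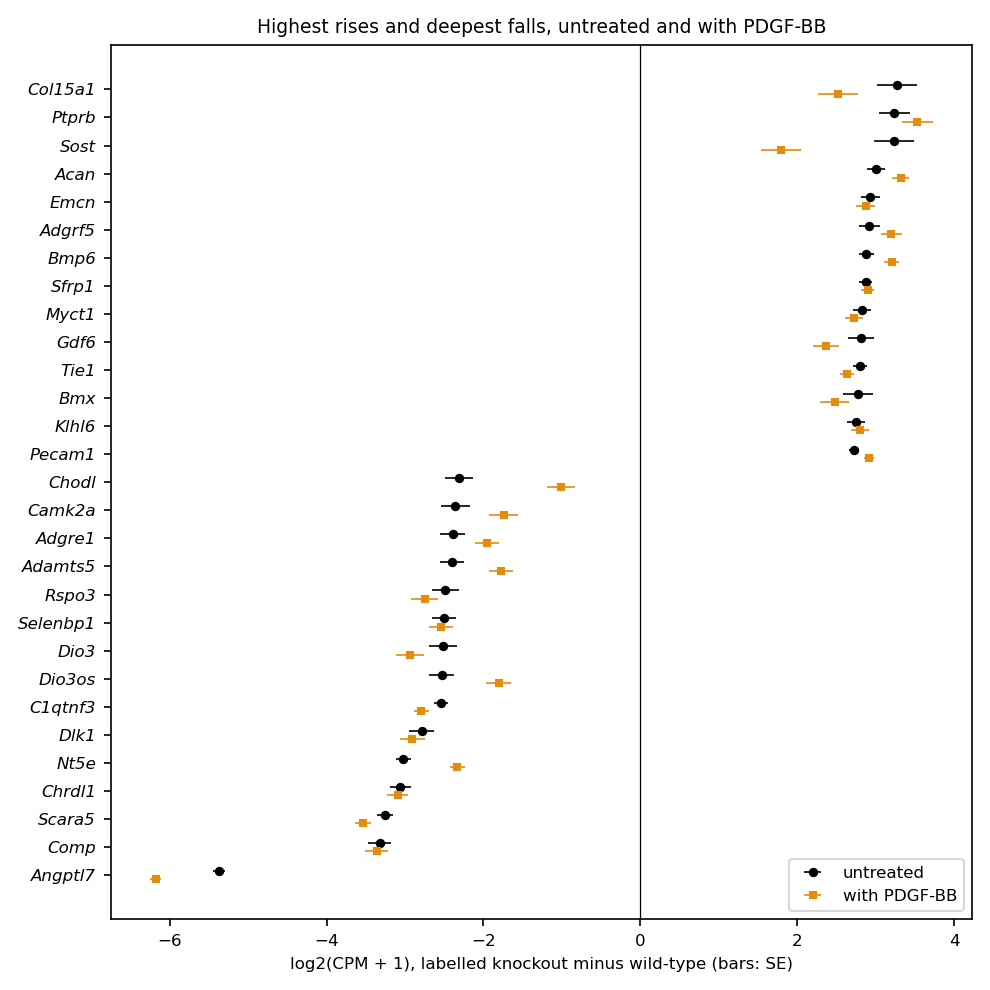
Points give the log2(CPM + 1) difference, labelled knockout minus wild-type, of 14 of the 15 highest rises and of the 15 deepest falls of the untreated comparison, with SE as bars; circles are untreated libraries and squares libraries with PDGF-BB. Angptl7 is the lowest in both, at −5.37 untreated and −6.18 with PDGF-BB, and every gene shown keeps its side of 0.

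Markers of the labelled cell type and of other cell types were then read. Smooth muscle markers were present in every library: Acta2, smooth muscle actin, had 1472, 1849 and 1424 CPM in wild-type and 1799, 2717 and 2863 CPM in labelled knockout. Myh11, the smooth muscle myosin heavy chain, had 71.8, 77.6 and 64.9 CPM against 57.0, 90.01 and 89.9 CPM, and the groups overlapped. Of 8 markers 7 passed the filter and 4 were called higher (Acta2, Cnn1, Tagln and Lmod1), beside 9.15% of all genes. Des stayed below 1 CPM in every untreated library. Acta2, Tagln and Lmod1 each lost their call without labelled knockout library 2, labelled knockout library 3, wild-type library 1 or wild-type library 3, which left 1 marker called. The summed CPM of all 8 markers was 1808 to 2294 in wild-type and 2259 to 3466 in labelled knockout, which overlap. Tagln, normally abundant in these cells, read only 2.98 to 7.12 CPM. Its exons share 62.4% of their bases with a gene on the other strand, and whether the counting used strand is not given in the sources used here, so its value is uncertain.

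All 11 endothelial markers were called higher in labelled knockout, beside 9.15% of all genes, with a median log2 difference of 2.59. Pecam1, the adhesion molecule CD31, had 34.9, 39.5 and 39.0 CPM in wild-type against 264, 248 and 256 CPM (log2 2.73, SE 0.07, adjusted p = 1.6e-11 by limma-trend). Cdh5, the endothelial cadherin, had 24.8, 27.1 and 29.8 CPM against 195, 167 and 173 CPM. The smallest difference was in Erg, an endothelial transcription factor, at 0.42 (SE 0.09). The summed CPM of the list was 167 to 176 in wild-type and 780 to 899 in labelled knockout, and none of the 11 was at 0.

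Macrophage markers went the other way. Of 13 markers 12 passed the filter, and all 12 were called lower, beside 24.8% of all genes, with a median of −1.30. Lyz2, lysozyme, fell from 85.6, 76.9 and 80.1 CPM to 19.6, 15.3 and 20.5 CPM, and Adgre1, the F4/80 antigen, from 17.8, 18.99 and 15.5 CPM to 2.88, 3.08 and 1.72 CPM. The summed CPM of all 13 was 171 to 183 in wild-type and 40.6 to 50.6 in labelled knockout. In bulk cultures fewer cells of a type and less RNA per cell cannot be told apart. The part of these markers in the other differences was not tested.

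**Figure D3:**
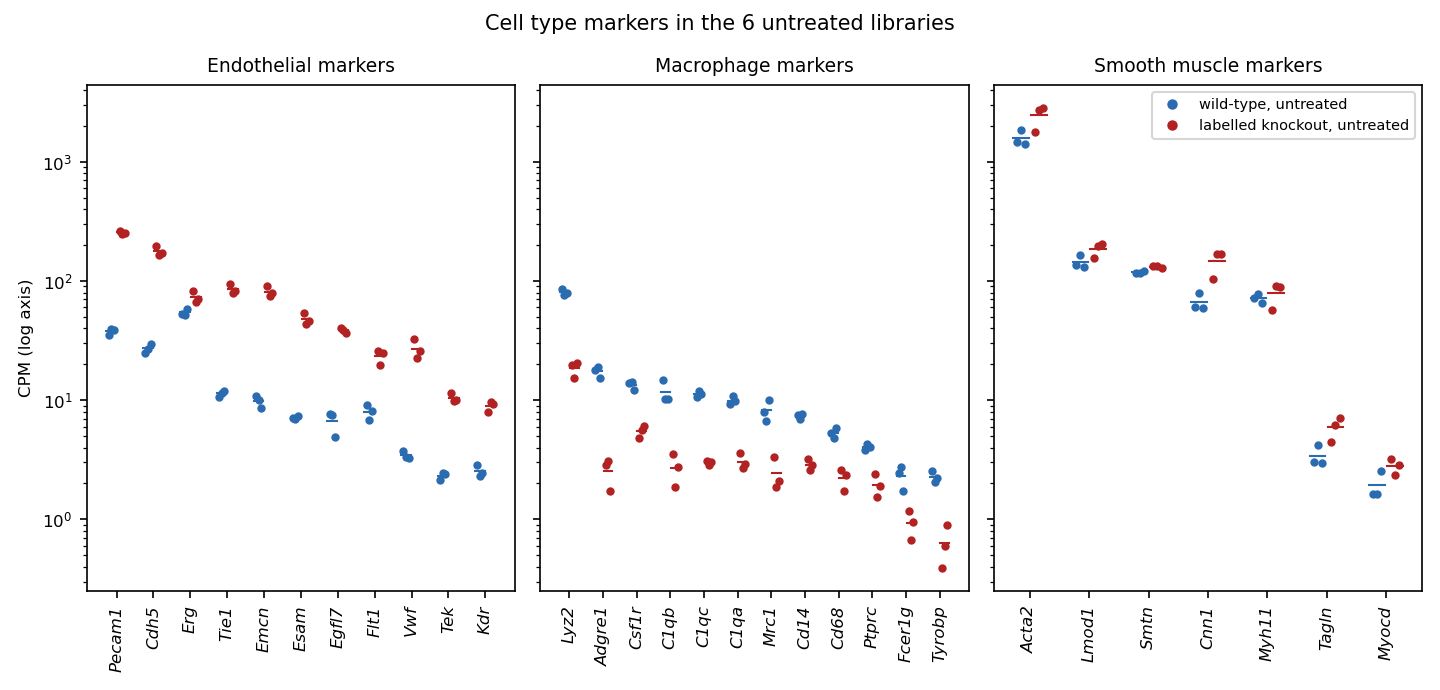
CPM on a log axis of the endothelial, macrophage and smooth muscle markers kept by the filter; each point is 1 of the 6 untreated libraries and each bar the mean of 3. All 11 endothelial markers lie higher and all 12 macrophage markers lower in labelled knockout, while Myh11 overlaps between the groups.

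Of the remaining marker lists, fibroblast markers were mixed, with 2 of 8 kept members higher and 2 lower (25% each). Over all genes 9.15% were higher and 24.8% lower. The summed CPM of all 11 listed was 628 to 648 in wild-type and 1391 to 1653 in labelled knockout, where most of it came from Col14a1. Pericyte markers had 2 of 5 members higher and none lower by limma-trend, also at an unadjusted p under 0.05 and with edgeR. Rgs5, a regulator of G protein signalling in mural cells, had 612, 539 and 615 CPM against 2529, 1416 and 1354 CPM. Library 1 was the highest of its group, and the log2 difference of 1.52 was 1.24 without it. Schwann cell, adipocyte, epithelial and striated muscle markers were few after the filter (6, 2, 4 and 5 genes), and Sox10 and Myod1 were at 0 in all untreated libraries.

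**Figure D4:**
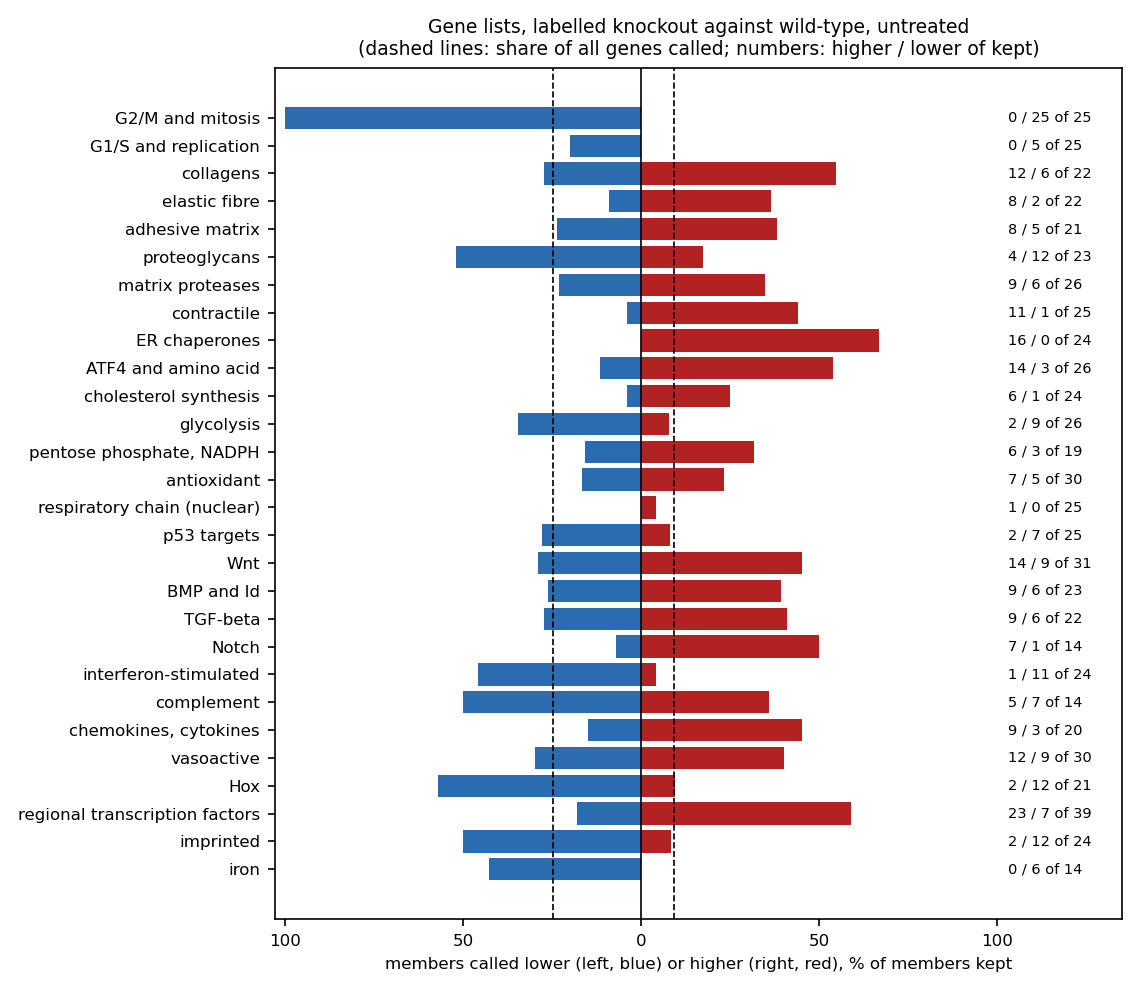
For each gene list, bars give the share of members kept by the filter that were called higher (right, red) or lower (left, blue) in untreated labelled knockout, with the counts at the right edge. Dashed lines mark the shares over all genes, 9.15% higher and 24.8% lower; G2/M genes reach 100% lower and endoplasmic reticulum chaperones the largest share higher among the lists drawn, which leave out the cell type markers.

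Genes of the G2 phase and mitosis were lower as a whole in labelled knockout. All 25 members of the list were called lower, beside 24.8% of all genes, with a median of −1.17, beside −0.13 over all genes. None was higher, also at an unadjusted p under 0.05 and with edgeR or DESeq2. Aspm, a spindle pole protein, had 18.0, 17.0 and 26.3 CPM in wild-type and 3.99, 5.62 and 9.23 CPM in labelled knockout (log2 −1.59, SE 0.27, adjusted p = 0.00047 by limma-trend). Ccnb1, cyclin B1, had 16.3, 15.9 and 27.2 CPM against 3.66, 8.09 and 8.12 CPM, and Top2a, the topoisomerase that untangles replicated DNA, 42.1, 45.4 and 62.6 CPM against 13.3, 27.3 and 24.6 CPM. The groups did not overlap for any of the 25 genes, and 40.5% of all genes had separate libraries with labelled knockout lower. Libraries within each group differed. The summed CPM was 372, 378 and 567 in wild-type and 114, 219 and 220 in labelled knockout.

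Without labelled knockout library 1 the median was −0.89 with 24 genes called, and without wild-type library 3 it was −0.94 with 23 called. After TMM scaling all 25 stayed lower, and edgeR on recovered reads called 22. With PDGF-BB the same list differed less, with a median of −0.37 and 2 genes called lower. The median interaction over the 25 genes was 0.76. By limma-trend 0 of them had an interaction past the threshold and 17 were at an unadjusted p under 0.05, so a change of the difference with PDGF-BB was not shown for any single gene. Genes of the G1/S step and of replication showed 0 of 25 higher and 5 lower by limma-trend (0 and 9 at an unadjusted p under 0.05, 1 and 4 with edgeR), with a median of −0.25. The 5 lower were Mcm7, Rrm2, Prim1, E2f1 and Slbp, which is 20% of the list beside 24.8% of all genes called lower. Among 15 cyclins, their inhibitors and related genes 6 were lower (40%) and 2 higher (13.3%), or 5 and 2 after TMM scaling. Cdkn1b, the inhibitor p27, was lower, at 143, 143 and 142 CPM against 101, 87.9 and 88.2 CPM (log2 −0.62, SE 0.06). The 2 higher were Cdkn2a, another inhibitor gene, and Rb1.

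**Figure D5:**
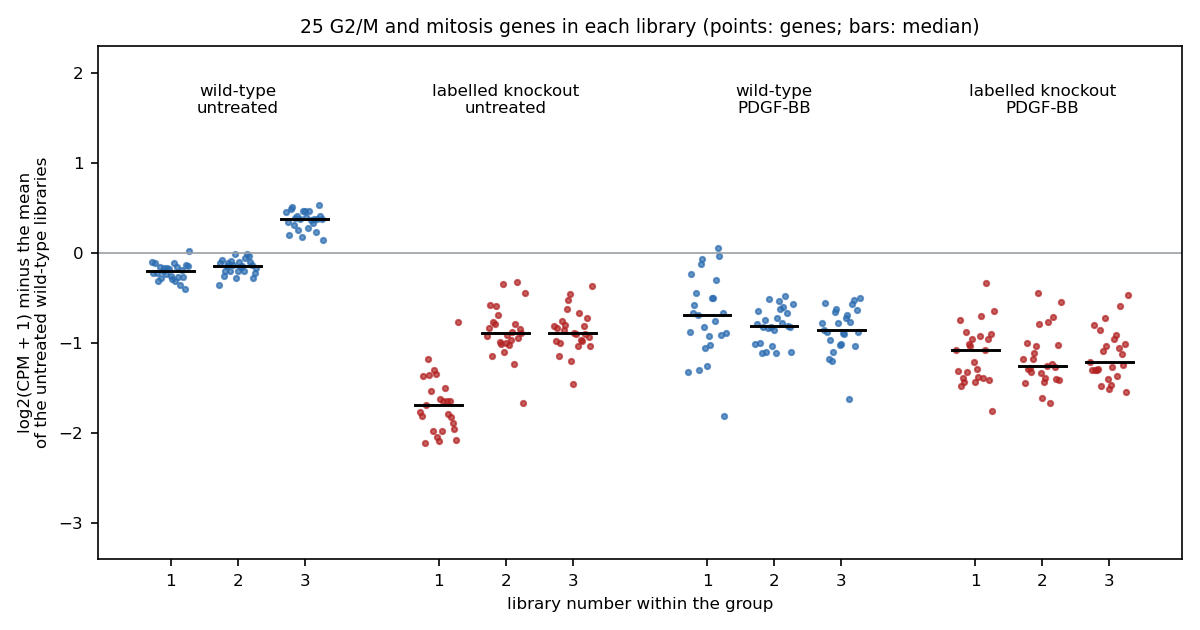
Each point is 1 of 25 G2/M and mitosis genes in 1 library, as log2(CPM + 1) minus that gene's mean in the untreated wild-type libraries, with the median of each library as a bar. Untreated labelled knockout libraries lie below untreated wild-type ones, library 1 is the lowest, and with PDGF-BB the groups lie closer together.

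Mitotic genes share promoter elements, so the promoters of the 3 members of the largest change are shown. Each window runs from 250 bases before to 50 bases after the annotated start, from RefSeq on GRCm38.p6, read 5′ to 3′ on the gene's strand. Capitals mark CCAAT boxes (CCAAT on either strand, bound by NF-Y) and the cell cycle gene homology region (TTTGAA on either strand).
Aspm, chr1:139454523-139454822, plus strand: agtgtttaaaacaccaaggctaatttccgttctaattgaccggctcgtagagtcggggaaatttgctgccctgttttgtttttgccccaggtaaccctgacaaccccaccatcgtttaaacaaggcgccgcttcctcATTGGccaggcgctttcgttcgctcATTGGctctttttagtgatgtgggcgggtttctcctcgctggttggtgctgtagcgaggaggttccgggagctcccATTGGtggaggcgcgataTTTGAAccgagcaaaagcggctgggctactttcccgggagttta
Cenpf, chr1:189688037-189688336, minus strand: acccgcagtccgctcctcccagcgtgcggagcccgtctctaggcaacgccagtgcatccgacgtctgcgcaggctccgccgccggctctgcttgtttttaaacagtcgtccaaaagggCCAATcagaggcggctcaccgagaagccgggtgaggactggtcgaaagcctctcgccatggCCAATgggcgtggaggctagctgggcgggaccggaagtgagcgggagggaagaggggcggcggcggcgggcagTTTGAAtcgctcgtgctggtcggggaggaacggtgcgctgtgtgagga
Ccnb1, chr13:100786437-100786736, minus strand: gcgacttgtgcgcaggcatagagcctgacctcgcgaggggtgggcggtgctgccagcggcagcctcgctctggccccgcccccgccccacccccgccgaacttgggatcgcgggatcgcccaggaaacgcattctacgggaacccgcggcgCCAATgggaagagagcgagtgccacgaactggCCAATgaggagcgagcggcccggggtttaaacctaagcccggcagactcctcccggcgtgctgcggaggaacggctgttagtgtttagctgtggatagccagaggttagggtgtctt
Promoters were found for 20 of the 25 members, 21 windows in all. A CCAAT box occurred in 19 of these windows (90.5%), against 37.4% of all 32851 promoters in the table. TTTGAA occurred in 16 (76.2%), against 17.9%, and the GC box GGGCGG in 18 (85.7%), against 35.7%. The AP-1 site TGANTCA occurred in none, against 7.81%. High shares of CCAAT and GC boxes were not particular to this list. Endoplasmic reticulum chaperones had 85% and 75%, and cholesterol synthesis genes 84.2% for each. Interferon-stimulated genes had 23.8% and 42.9%. Aspm and Cenpf hold both marked elements and Ccnb1 holds only CCAAT boxes. These matches describe letters in a window and were not tested for binding.

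Most chaperones of the endoplasmic reticulum, which fold secreted and membrane proteins, were called higher in labelled knockout. Of 24 genes 16 were called higher (66.7%) and none lower by limma-trend, beside 9.15% and 24.8% of all genes. At an unadjusted p under 0.05 the counts were 17 and 0. The median was 0.39, beside −0.13 over all genes. After TMM scaling 22 were higher, beside 13.6% of all genes, and with edgeR 23. Hspa5, the chaperone BiP, had 721, 697 and 684 CPM in wild-type and 1159, 1267 and 1253 CPM in labelled knockout (log2 0.81, SE 0.11, adjusted p = 7.1e-05 by limma-trend). Manf, Hyou1 and Sdf2l1 followed at 0.71, 0.66 and 0.66. Many such genes carry an endoplasmic reticulum stress element, bound by NF-Y together with ATF6 or XBP1. The promoters of the 3 called members of the largest change that hold it are shown in the same way, with the element in capitals.
Hspa5, chr2:34771840-34772139, plus strand: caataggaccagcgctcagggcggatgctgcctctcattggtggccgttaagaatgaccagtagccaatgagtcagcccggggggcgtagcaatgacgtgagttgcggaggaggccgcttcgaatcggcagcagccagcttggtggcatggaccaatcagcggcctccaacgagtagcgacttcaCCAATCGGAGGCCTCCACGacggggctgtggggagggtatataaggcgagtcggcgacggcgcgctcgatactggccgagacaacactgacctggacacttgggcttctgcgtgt
Hsp90b1, chr10:86705395-86705694, minus strand: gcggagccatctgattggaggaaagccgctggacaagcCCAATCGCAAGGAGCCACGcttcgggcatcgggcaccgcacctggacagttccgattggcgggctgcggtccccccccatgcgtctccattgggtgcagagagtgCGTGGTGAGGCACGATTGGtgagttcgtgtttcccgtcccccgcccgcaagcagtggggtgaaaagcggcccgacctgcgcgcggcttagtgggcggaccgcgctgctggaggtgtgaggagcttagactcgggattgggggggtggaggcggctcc
Creld2, chr15:88819396-88819695, plus strand: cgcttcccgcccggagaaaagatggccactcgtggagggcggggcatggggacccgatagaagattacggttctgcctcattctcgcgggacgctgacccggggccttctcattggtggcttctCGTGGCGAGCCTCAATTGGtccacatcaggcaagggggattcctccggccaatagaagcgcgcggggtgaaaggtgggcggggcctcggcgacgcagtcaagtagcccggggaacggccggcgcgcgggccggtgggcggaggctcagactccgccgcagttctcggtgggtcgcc
The element, CCAAT and CCACG with 9 bases between them on either strand, occurred in 7 of the 20 promoters found for the list (35%) and in 0.119% of all promoters. Hsp90b1, the chaperone GRP94, holds it at 2 places. Every full element also contains a CCAAT box.

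Genes of the amino acid response, many of them targets of the transcription factor ATF4, were more often called higher than lower. Of 26 genes 14 were called higher (53.8%), 3 lower (11.5%) and 9 neither, beside 9.15% and 24.8% of all genes. The median was 0.44. Trib3, a pseudokinase induced by stress, had 5.42, 6.92 and 5.18 CPM against 15.2, 21.1 and 20.6 CPM (log2 1.54, SE 0.15). Mthfd2, a mitochondrial enzyme of folate metabolism, had 10.6, 12.3 and 9.06 CPM against 20.9, 30.5 and 34.3 CPM, and Slc7a11, the cystine transporter, 1.45, 1.43 and 1.43 CPM against 4.19, 4.81 and 7.62 CPM. Vldlr, a lipoprotein receptor on this list, fell by 1.69. With PDGF-BB 2 of the genes were higher and 10 lower, with a median of −0.26. The interaction was past the threshold in 9 of the 26 genes, all negative, beside 3.92% of all genes in either direction. The amino acid response element TGATGNAAN occurred in 9 of 26 windows (34.6%) for 22 members and in 3.95% of all promoters.

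Metabolic genes around the step that TIGAR acts on differed in both directions. Of 26 glycolysis genes 2 were higher, Hk2 and Pfkfb3, and 9 lower (4 and 8 after TMM scaling), with a median of −0.18. These are 7.69% and 34.6% of the list, beside 9.15% and 24.8% of all genes. The larger falls were in isozymes of low level here, Aldoc at −1.07, Ldhb at −0.70 and Eno2 at −0.63. Pfkfb3, which makes the activator that TIGAR removes, stood at 15.2 ± 2.60 CPM in wild-type and 23.3 ± 2.35 CPM in labelled knockout (SD, n = 3; log2 0.59, SE 0.12). Eno1, the most abundant member, differed by −0.08 (adjusted p = 0.62). With PDGF-BB 21 of the 26 genes were lower and none higher, with a median of −0.54, and 10 genes had a negative and 1 a positive interaction past the threshold.

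In the pentose phosphate and NADPH list, 6 of 19 genes were higher and 3 lower (7 and 1 after TMM scaling). Over all genes 9.15% were higher and 24.8% lower, or 13.6% and 14.3% after TMM scaling. G6pdx, which commits glucose to the pathway, had 65.9, 73.5 and 71.1 CPM against 78.1, 89.9 and 91.3 CPM (log2 0.30, SE 0.07, adjusted p = 0.0074 by limma-trend). The larger rises were in folate enzymes, Aldh1l2 at 1.45 and Mthfd2 at 1.32, but Aldh1l2 shares 14.1% of its exonic bases with a gene on the other strand, so its value is uncertain. The count of lower genes was 1 without labelled knockout library 3 or wild-type library 2. Of 30 antioxidant genes 7 were higher and 5 lower, and 10 and 1 after TMM scaling. Without wild-type library 1 the higher count was 4, and without single other libraries the lower count ran from 2 (wild-type library 2) through 3 (labelled knockout library 2 or 3) to 8 (wild-type PDGF-BB library 1). Gclc, which makes glutathione's precursor, was at 0.52, and Gstm1, a glutathione transferase, at −0.76. Respiratory chain genes of the nucleus had 1 of 25 higher and none lower by limma-trend, 1 and 0 at an unadjusted p under 0.05, and 2 and 0 with edgeR. Of the 10 mitochondrial ones 0 were called by limma-trend, adjusted or at an unadjusted p under 0.05, while edgeR called 1 and DESeq2 3. Of 25 p53 targets 2 were higher and 7 lower (8% and 28%), near the shares over all genes. They were 5 and 2 after TMM scaling, so their balance depends on the scaling, as that of all genes does. The 7 were 3 without any one wild-type library, 4 without labelled knockout library 3 and 11 without wild-type PDGF-BB library 1. Cholesterol synthesis genes had 6 of 24 higher and 1 lower, but 11 and 0 after TMM scaling, 15 higher without labelled knockout library 1 and 3 higher without library 2 or 3. Sqle, squalene epoxidase, was at 0.51.

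Matrix genes differed in both directions within each class, beside 9.15% of all genes called higher and 24.8% lower. Most of the collagens called were higher: of 22 genes 12 were higher (54.5%) and 6 lower (27.3%), with a median of 0.37. Col1a2, a chain of type I collagen, had 2500, 2452 and 2446 CPM against 6257, 5718 and 5849 CPM (log2 1.27, SE 0.08), and Col1a1, its partner, 1699, 1617 and 1626 CPM against 4244, 4588 and 4683 CPM. Col14a1, which sits on collagen fibrils, went from 225, 201 and 205 CPM to 1406, 1202 and 1162 CPM (log2 2.57, SE 0.10). The falls included all 3 chains of type VI collagen on the list, of which Col6a3 went from 307, 283 and 330 CPM to 109, 93.2 and 98.0 CPM.

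Elastic fibre genes had 8 of 22 higher (36.4%) and 2 lower (9.09%). Over all genes 9.15% were higher and 24.8% lower, or 13.6% and 14.3% after TMM scaling. Eln, elastin itself, had 3944, 3646 and 3650 CPM in wild-type and 13550, 10962 and 10497 CPM in labelled knockout (log2 1.63, SE 0.12, adjusted p = 2.6e-07 by limma-trend). Ltbp2 and Mfap5, proteins of the microfibrils around elastin, rose by 1.89 and 1.20, and Efemp1, fibulin-3, fell by 1.45. Labelled knockout library 1 was the lowest of its group for Efemp1, and the difference was −1.18 without it. Proteoglycans leaned the other way, with 4 of 23 higher and 12 lower (5 and 8 after TMM scaling). Acan was the main exception to the falls, among which Ogn, a small leucine-rich proteoglycan, went from 3329, 3039 and 3475 CPM to 1252, 772 and 788 CPM. Hapln1, which links aggrecan to hyaluronan, fell by 1.94, and Prelp, another small leucine-rich protein, by 1.58. Of 21 adhesive glycoproteins 8 were higher (38.1%) and 5 lower (23.8%). Fn1, fibronectin, showed 35482 ± 2039 CPM in wild-type and 37009 ± 928 CPM in labelled knockout (SD, n = 3), and its difference of 0.06 was within the spread of the libraries. Spp1, osteopontin, fell by 2.11. Matrix proteases and their inhibitors had 9 of 26 higher (34.6%) and 6 lower (23.1%). Adam12 was at 2.10 and Mmp16 at −1.38, or −1.16 without labelled knockout library 1.

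Among contractile genes more were called higher than lower, and the count depended on single libraries. Of 25 genes 11 were called higher (44%), 1 lower (4%) and 13 neither, beside 9.15% and 24.8% of all genes. The median was 0.36. Cnn1, calponin, had 60.3, 79.3 and 59.1 CPM against 104, 169 and 168 CPM (log2 1.12, SE 0.18). Labelled knockout library 1 was the lowest of its group for Acta2, Cnn1 and Myh11. The count of higher genes was 7 without labelled knockout library 2 or 3, 6 without wild-type library 1 or 3, and 12 without labelled knockout library 1. Myl9, a regulatory light chain of myosin, was at 0.67 and Sncg, a small soluble protein, at −0.79. With PDGF-BB 20 of the 25 genes were higher and 1 lower.

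Signalling lists held changes in both directions, as all genes did, of which 9.15% were called higher and 24.8% lower. Among Wnt genes, 14 of 31 were higher (45.2%) and 9 lower (29.0%). Secreted inhibitors were among the rises: besides Sost, Sfrp1 had 24.5, 28.5 and 25.8 CPM against 214, 189 and 194 CPM, and Sfrp2 was at 1.52. R-spondins, which strengthen Wnt signalling at the receptor, fell: Rspo3 had 56.1, 53.3 and 56.4 CPM against 12.2, 8.63 and 6.95 CPM, and Rspo1 was at −2.19. In the BMP list 9 of 23 were higher (39.1%) and 6 lower (26.1%). The ligands Bmp6 and Gdf6 rose, Gdf6 from 19.1, 18.8 and 15.8 CPM to 185, 115 and 106 CPM, with library 1 the highest and a log2 difference of 2.57 without it against 2.81 with it. Smoc2, a matricellular protein, fell by 1.60.

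For TGF-beta genes 9 of 22 were higher (40.9%) and 6 lower (27.3%), beside 9.15% and 24.8% of all genes. Tgfbi, an induced matrix protein, had 3.72, 2.24 and 2.98 CPM against 24.8, 21.7 and 26.0 CPM. The co-receptor Tgfbr3 and the activin subunit gene Inhbb fell by 1.64 and 1.49. Notch genes had 7 of 14 higher (50%) and 1 lower (7.14%). Hey1, a target of the receptor, had 0.630, 1.02 and 0.655 CPM against 13.7, 8.36 and 8.45 CPM (log2 2.63, SE 0.18), and Notch4 and Dll4, a receptor and a ligand known from endothelium, were at 1.64 and 1.29. Jag1, the most abundant member, differed by 0.13 and was not called. The endothelial markers described above were also higher, and their part in the Notch values was not tested.

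PDGF genes matter because PDGF-BB is the treatment of the other libraries. Pdgfrb, its receptor on smooth muscle, had 811, 795 and 782 CPM against 789, 696 and 702 CPM and was not called (log2 −0.13, SE 0.11). Pdgfb, the ligand itself, which endothelium is known to release, had 5.29, 7.03 and 6.14 CPM against 34.2, 26.3 and 27.5 CPM (log2 2.08, SE 0.11). Growth factor genes of the FGF, IGF and EGF families had 4 of 24 higher and 10 lower, but 7 and 7 after TMM scaling, and 7 higher without wild-type PDGF-BB library 1, with Fgf18 at −1.98, Egfr at −1.17 and Igf1 at 0.92. Of 29 early response genes 6 were called in each direction, but 10 higher and 4 lower after TMM scaling. Without wild-type PDGF-BB library 1 the higher count was 10. Over all genes 9.15% were higher and 24.8% lower, or 13.6% and 14.3% after TMM scaling. Klf4, a transcription factor that lowers contractile genes in smooth muscle, had 235, 248 and 242 CPM against 73.9, 106 and 113 CPM (log2 −1.32, SE 0.12).

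Vasoactive genes had 12 of 30 higher (40%) and 9 lower (30%), beside 9.15% and 24.8% of all genes. Edn1, the vasoconstrictor endothelin-1, had 17.3, 21.2 and 17.0 CPM against 132, 107 and 102 CPM (log2 2.55, SE 0.12), and Calcrl, the receptor for adrenomedullin and CGRP, 7.06, 6.42 and 5.004 CPM against 57.7, 37.7 and 39.2 CPM. Prkg1, the cGMP-dependent kinase that relaxes smooth muscle, fell by 1.29, and Adm, adrenomedullin, by 1.00. Calcium and other ion channel genes had 8 of 28 higher (28.6%) and 10 lower (35.7%), with Trpc6 at 1.73, Cacna1c at 1.33 and Trpv4 at −1.37.

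Immune genes divided by type. Over all genes 9.15% were called higher and 24.8% lower, or 13.6% and 14.3% after TMM scaling. Of 24 interferon-stimulated genes 11 were lower, 1 higher and 12 not called. The lower count was 7 after TMM scaling, 7 without labelled knockout library 2, and 6 without labelled knockout library 3 or wild-type library 3. Irgm1, an interferon-induced GTPase, had 138, 139 and 142 CPM against 63.9, 58.3 and 57.8 CPM (log2 −1.20, SE 0.07). Chemokines and cytokines had 9 of 20 higher and 3 lower. The lower count was 1 after TMM scaling, and 1 without labelled knockout library 1 or 2 or wild-type library 1 or 2. Il6, interleukin 6, had 2.39, 2.39 and 1.67 CPM against 11.3, 21.1 and 18.0 CPM, and Cxcl12, the most abundant, 1094, 1128 and 1049 CPM against 2483, 2800 and 2714 CPM (log2 1.29, SE 0.07). Complement genes had 5 of 14 higher and 7 lower. C3, the central component, went from 201, 143 and 142 CPM to 41.9, 32.9 and 32.8 CPM. C1qa, lower by 1.43, is also a macrophage marker.

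Genes known for marking position in the embryo differed between the groups. Of 39 Hox genes listed 21 were kept, of which 12 were lower (57.1%) and 2 higher (9.52%), with a median of −0.56. Over all genes 24.8% were lower and 9.15% higher. Hoxa5 had 49.7, 53.9 and 50.8 CPM against 20.4, 19.2 and 19.96 CPM, and Hoxb5 15.5, 17.9 and 16.3 CPM against 5.30, 5.82 and 6.73 CPM. Hoxa9 and Hoxa10 were the higher ones, Hoxa10 at 0.126, 0.458 and 0.238 CPM against 1.90, 1.60 and 1.84 CPM. Other regional transcription factors, 39 kept of 62 listed, leaned higher, with 23 higher (59.0%), 7 lower (17.9%) and a median of 0.58. A gene below 1 CPM in every wild-type library passed the filter only through labelled knockout libraries, and the other way round. The counts of low genes therefore depend on the filter. Tbx1, a factor of the pharyngeal arches, had 1.45, 1.12 and 1.49 CPM against 11.5, 7.76 and 9.45 CPM. Pax9 had 9.52, 10.6 and 11.4 CPM against 49.3, 38.1 and 40.0 CPM, and Barx1 and Dlx6, homeobox genes of the jaw, were at 1.86 and 1.81. The labels name no vessel of origin for either group, and its part in these values was not tested.

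Imprinted genes had 12 of 24 lower (50%) and 2 higher (8.33%), beside 24.8% and 9.15% of all genes. A run of the falls lies in the Dlk1-Dio3 domain of chromosome 12. Dlk1, a Notch-like ligand expressed from the paternal copy, had 21.9, 22.0 and 22.5 CPM against 2.03, 2.41 and 2.67 CPM (log2 −2.79, SE 0.16). Meg3, the long RNA of the maternal copy, had 1117, 1070 and 978 CPM against 460, 442 and 453 CPM (log2 −1.22, SE 0.10). Dio3, a deiodinase that inactivates thyroid hormone, had 15.2, 13.8 and 15.01 CPM against 2.03, 2.14 and 1.17 CPM. Mirg, another long RNA of the domain, was at −1.13, so the lower transcripts include ones known from each parental copy. Peg10, a retrotransposon-derived gene of chromosome 6, was the main rise, at 2.14.

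Some smaller lists had counts that depended on the scaling, beside 9.15% of all genes higher and 24.8% lower, or 13.6% and 14.3% after TMM scaling. Of 14 iron genes 6 were lower by limma-trend and none higher (7 and 0 at an unadjusted p under 0.05), but 4 lower and 3 higher after TMM scaling and with edgeR. Steap4, a metalloreductase, was at −1.40, Slc40a1, the iron exporter ferroportin, at −0.96 and Fth1, the ferritin heavy chain, at −0.55. Autophagy and lysosome genes had 1 of 30 higher and 9 lower (1 and 3 after TMM scaling, and 14 lower without wild-type PDGF-BB library 1), the largest fall being Ctss, cathepsin S, at −1.33. Hypoxia genes had 2 of 19 higher and 7 lower (4 and 4), with Plod2, a collagen lysyl hydroxylase, at −0.42. Clock genes had 1 of 18 higher and 6 lower (4 and 4), with Per3 at −0.54. Male-specific transcripts were present in every untreated library of both groups, and Xist stayed at or below 0.458 CPM.

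Genes near Tigar were counted, since its locus is the one named in the labels. On chromosome 6, 80 of 723 genes were higher and 206 lower, 39.6% in all, and on the other autosomes and X 30.3% to 37.0% of genes were called. Within 1 Mb of Tigar 11 other genes were kept, of which Tspan9 was higher at 0.37 and Rad51ap1 and Cracr2a lower at −0.58 and −0.44. The call of Cracr2a was lost without any one of the 6 untreated libraries, after TMM scaling and with edgeR. Within 5 Mb 40.4% of 89 genes were called, and within 10 Mb 39.0% of 146. No strain is given in the labels, and sequence differences were not analysed here.

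The same comparison in the 6 libraries with PDGF-BB shares no library with the untreated one. It called 5284 genes (37.2%), 10.6% higher and 26.6% lower. Of the 4823 genes called untreated 2880 were called in the same direction with PDGF-BB, which is 59.7% of the untreated calls and 54.5% of the PDGF-BB calls, and 75 were called in the opposite direction. Of the 747 genes with at least a 2-fold difference 646 (86.5%) were called in the same direction. The difference itself changed with PDGF-BB for 557 genes (3.92%) by the interaction test of limma-trend, 372 of them among the untreated calls (7.71%). The count of 557 depended on single libraries. It was 276 without untreated wild-type library 1 and 1554 without wild-type PDGF-BB library 1, and library weights gave 4720. All 11 endothelial markers were higher and 11 of the 12 macrophage markers lower with PDGF-BB as well.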

How the data were processed

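The deposited values are CPM, although the authors named the table for FPKM: each library summed to 1000000, and 100% of values were whole reads within 0.001 read, with no division by gene length. Per the submitters' processing notes, HISAT2 and HTSeq were used on mm10, without stated versions or strand setting. The file headers give GRCm38.p6. Per the labels, libraries came from a stranded mRNA kit and RNA of integrity number above 7. The table held 55487 genes, 25008 of them at 0 everywhere.

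Genes with CPM of at least 1 in at least 3 of 12 libraries were kept. The test was limma-trend (limma 3.58.1, R 4.3.3) of log2(CPM + 1) in a single fit of the 12 libraries with a mean for each group, 2-sided, Benjamini-Hochberg over 14202 genes, threshold 0.05. A pseudocount of 1 makes changes of low genes smaller than CPM ratios. Alternatives included TMM and quantile scaling, the recovered reads in edgeR 4.0.16 or DESeq2 1.42.0, and each untreated library or wild-type PDGF-BB library 1 left out. The procedure was checked on simulated counts with few changed genes, balanced in direction. It recovered 35.8% of 1.5-fold, 94.0% of 2-fold and 100% of 4-fold changes, and 3 of 156 calls were false. The simulation held no median shift between groups, so it cannot say how the calls respond to one. Lists have no test. Rspo3, Sfrp2, Spp1 and Ccn2 share 13.1% to 23.2% of exonic bases with genes of at most 0.711 CPM.

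The members and lists were chosen with earlier results of these data known. Named are Tigar, the 15 largest rises and falls with separate libraries and a mean of at least 5 CPM in the higher group, and per list up to 4 called members of the largest change and the most abundant one. Other genes named, the endoplasmic reticulum promoters and 4 of the motifs were chosen after values were seen. A few of these genes are not reported here. Promoter sequences are RefSeq's on GRCm38.p6.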

Additional observations from a re-analysis of the deposited data

Results flagged for a closer look

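For 19 genes named above, the difference of labelled knockout from wild-type changed with PDGF-BB at an adjusted p under 0.05 by limma-trend's interaction test. That threshold was passed by 3.92% of all genes and by 7.71% of the genes called untreated. The interaction is the log2 difference with PDGF-BB minus the untreated one. Most named genes were chosen for a large untreated difference, which the interaction subtracts. Smaller differences with PDGF-BB are therefore favoured by the choice of genes.

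For 4 genes the difference was larger with PDGF-BB. Angptl7 was at −5.37 untreated and −6.18 with PDGF-BB, an interaction of −0.80 (adjusted p = 0.0012). Edn1 was at 2.55 and 3.26, an interaction of 0.71. Jag1 was called with PDGF-BB at 0.97 and not untreated at 0.13, an interaction of 0.84, and Lmod1, a tropomodulin of smooth muscle, went from 0.36 to 1.03, an interaction of 0.67.

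Falls were smaller with PDGF-BB in Nt5e (interaction 0.69), Chodl (1.30), Mmp16 (1.20), Rspo1 (1.08), Egfr (0.75) and Irgm1 (0.50). Rises were smaller in Sost (−1.44, adjusted p = 0.045), Hey1 (−1.19), Peg10 (−1.03), Trib3 (−1.43) and Hyou1 (−0.34, adjusted p = 0.046 by limma-trend). Sost and Hyou1 were close to the threshold. With PDGF-BB, Sost had a mean of 0.480 CPM in wild-type and Chodl 0.220 CPM in labelled knockout. At such levels the pseudocount of 1 shrinks log2 differences, so part of these 2 interactions comes from the scale.

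The remaining 4 genes, all of metabolism, were called higher untreated, and 3 of them were called lower with PDGF-BB. Mthfd2 went from 1.32 to −0.63, an interaction of −1.96 (adjusted p = 0.00043). Hk2, a hexokinase, went from 0.53 to −0.83, an interaction of −1.36. Pfkfb3 went from 0.59 to −0.54, an interaction of −1.14. G6pdx was at 0.30 untreated and at −0.19 with PDGF-BB, where it was not called (adjusted p = 0.064 by limma-trend), an interaction of −0.48. The 6 libraries with PDGF-BB share none with the untreated comparison.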

How the results depend on the processing

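Of 4926 values of named genes under alternatives 4669 kept direction and call, 184 kept direction and lost the call, 71 gained one and 2 reversed. The reversed ones were Bgn, at 0.10 and not called but −0.34 after quantile normalization, and mt-Co1, at 0.01 and −0.30; the cause was not tested. Counts of lower genes, 3523 with CPM scaling, were 2034 with TMM, 2149 with quantile normalization, 1993 with edgeR and 1947 with DESeq2, which also called 2144 higher; these scalings remove the median shift of −0.13. Library weights gave 8006 calls, 2090 higher and 5916 lower; the cause was not tested. Leaving out 1 untreated library gave 3675 to 4619 calls, and leaving out wild-type PDGF-BB library 1 gave 7103. Filters, pseudocounts, a fit without trend and a fit of the 6 untreated libraries alone (6453 calls) stayed within 1.5 times.

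Same-numbered libraries of the groups had correlations of deviations of 0.18, 0.11 and −0.026, not all above 0.1, so the numbers were not used as pairs. With a replicate block 4488 genes were called over all libraries and 6751 over the untreated ones. Not every library correlated best with its own number.

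Depth limits genes of few CPM: 1 read was 0.0669 CPM in the shallowest library.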

Other observations

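Among genes of cartilage and bone, 6 of 19 were higher and 8 lower in untreated labelled knockout. Over all genes 9.15% were higher and 24.8% lower, or 13.6% and 14.3% after TMM scaling. Col10a1, the collagen of hypertrophic cartilage, had a mean of 10.0 ± 1.78 CPM in wild-type and 40.5 ± 16.5 CPM in labelled knockout (SD, n = 3; log2 1.86, SE 0.20). Col2a1, the main cartilage collagen, was abundant in both groups, at 967 ± 124 CPM and 860.3 ± 42.3 CPM, and was not called. Targets of YAP and TEAD were mixed, with 3 of 18 higher and 6 lower (4 and 4 after TMM scaling). Ankrd1, a stretch-induced nuclear protein, was at 1.81 and Ccn1, a matricellular protein, at 0.87, while Ccn2, the most abundant, differed by −0.07 and was not called. Of 24 fatty acid genes 6 were higher and 7 lower (3 higher without labelled knockout library 2, 11 lower without wild-type PDGF-BB library 1), with Fabp4, a fatty acid carrier, at 1.00 and Plin4, a lipid droplet protein, at −0.73.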
